A study of Mus musculus with 4 samples.

Results

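The expression of 10 genes of the MHC class I pathway was taken from expression arrays of mouse preproB cells, which stand near the start of the B lineage in bone marrow. The genes are H2-K1 and H2-D1 (class I heavy chains), B2m (their light chain), Tap1, Tap2 and Tapbp (peptide transport and loading), Psmb8, Psmb9 and Psmb10 (immunoproteasome subunits) and Nlrc5 (a transcriptional regulator). The rule lists them by name and uses no measured value, but the list was drawn up with earlier results of these data known. All 10 genes were on the array, with 12 of its 39429 probes, and all 10 were among the 19394 genes tested. Every one of the 12 probes was well above background on all 4 arrays, so no gene was lost to the filter on dim probes.

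The mice were C57BL/6 and carried loxP sites on both alleles around the enhancer 37 kb from Cebpa, written Enh(f/f). Cebpa encodes C/EBPα, a transcription factor of myeloid development. The control group (n = 2) was Enh(f/f) without Cre, and the EnhDel group (n = 2) was Enh(f/f);Mx1-Cre. Mx1-Cre is driven by an interferon-inducible promoter and is not limited to B-lineage cells. Both groups were given pIpC (a double-stranded RNA made to provoke interferon) in 3 doses, and marrow was taken 5 weeks later. Only the EnhDel mice carried Cre, so the presence of Cre and the loss of the enhancer cannot be told apart. Cells were sorted as lineage-negative, B220+, CD43+, BP1- and CD24-. Control replicate 1 was labelled female and 26 weeks old, and the other 3 samples male and 24 weeks old. The comparison asked how expression in these cells differs when the enhancer is deleted.

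Class I molecules display peptides from inside the cell to CD8 T cells and NK cells, and nearly all nucleated cells carry them. Proteasomes cut proteins into peptides, and in the immunoproteasome, which blood cells make and interferon induces, Psmb8, Psmb9 and Psmb10 take the places of Psmb5, Psmb6 and Psmb7. Tap1 and Tap2 form the pump that carries the peptides into the endoplasmic reticulum, where tapasin (Tapbp) helps to load them onto a heavy chain paired with B2m. Nlrc5 binds with RFX, CREB and NF-Y factors to promoters of some genes of the pathway, and interferon and NF-κB signalling act through other sites.

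The labels were checked against marker genes before any comparison, and 2 arrays went against their label of sex. Xist, which is transcribed from an inactive X chromosome, had a signal of 3.4 and 5 by its 2 probes on control replicate 1, not well above background, although that sample was labelled female. On the library labelled EnhDel replicate 2, labelled male, the same probes gave 1551 and 597.3, well above background. The Y-linked Ddx3y had a signal of 3116 and 3474 in the controls, 3624 on EnhDel replicate 1 and 1560 on EnhDel replicate 2. EnhDel replicate 2 thus stood apart, and the values of the 10 genes and the counts and medians of the related lists are given with it and without it. Cebpa had signals of 1271 and 927 in the controls and 125 and 287 on the EnhDel arrays, lower on both of the latter. Ptprc, which encodes the B220 antigen among other CD45 forms, and Spn, which encodes CD43, were well above background on all arrays. Enpep, the BP1 gene, was below background on all 4. Cd24a was well above background on all 4 arrays despite the CD24- gate. Between 59.6% and 64.9% of probes per array were well above background, and saturation was not reached. No p-value here covers more than the spread between these 4 samples. In sorted bulk RNA, fewer cells of a type and less RNA per cell cannot be told apart.

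The promoter sequences are shown for genes of the set that hold motifs described for class I promoters. Not all genes searched hold them. Each stretch is from RefSeq on GRCm38.p6 and ends at the base before the annotated start. Capitals mark GGGGATTCC (from the kappa B site), GAANNGAAA and GAAANNGAA (from forms of the interferon response element), TGACG (the core of a CREB site) and ATTGG (an inverted CCAAT box, bound by NF-Y), on either strand. The first stretch is chr17:35262894-35263093 on the plus strand, the second chr2:122147537-122147686 on the plus strand, and the third chr17:34187331-34187555, the whole interval of 225 bases between Psmb9 and Tap1, read towards Tap1.
H2-D1: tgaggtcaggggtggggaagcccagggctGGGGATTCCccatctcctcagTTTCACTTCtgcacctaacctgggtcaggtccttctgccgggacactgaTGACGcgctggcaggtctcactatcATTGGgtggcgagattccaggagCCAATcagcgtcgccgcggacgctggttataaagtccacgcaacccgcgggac
B2m: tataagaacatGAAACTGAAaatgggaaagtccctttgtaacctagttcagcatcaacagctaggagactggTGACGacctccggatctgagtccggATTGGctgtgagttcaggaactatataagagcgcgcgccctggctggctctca
Psmb9 to Tap1: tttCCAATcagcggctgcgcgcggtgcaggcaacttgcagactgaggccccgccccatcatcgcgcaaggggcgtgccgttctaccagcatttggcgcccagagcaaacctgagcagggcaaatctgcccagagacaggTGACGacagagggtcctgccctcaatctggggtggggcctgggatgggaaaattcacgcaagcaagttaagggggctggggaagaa
The H2-D1 stretch holds the kappa B motif, the interferon motif, the CREB motif and the CCAAT box in that order towards the start. The 2 annotated H2-K1 starts are preceded by the same 4 motifs in the same order, and over 100 bases from the kappa B motif onward H2-K1 and H2-D1 were identical at 89. In B2m the interferon motif was GAAANNGAA, followed by the CREB motif and the CCAAT box.

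Promoters were found for 8 of the 10 genes, all but Tap2 and Nlrc5, and the motifs were searched in the 250 bases before each start. GGGGATTCC stood in 70 of all 32851 promoters (0.213%), among them those of H2-K1, H2-D1 and the further heavy chain genes H2-Q6 and H2-Q7. GAANNGAAA was found in 6.31% of promoters and, among the 8 genes, in H2-K1 and H2-D1. GAAANNGAA was found in 7.13% of promoters and in B2m. TGACG and ATTGG stood together in 6.12% of promoters and in 5 of the 8 genes, namely H2-K1, H2-D1, B2m, Tap1 and Psmb9, of which Tap1 and Psmb9 share the same bases. No motif shown in capitals overlaps another. These matches are a description of letters and not of binding, and a window without a match says nothing about a factor.

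No gene of the set passed the adjusted threshold, but all 10 had a higher mean on the EnhDel arrays, a direction that turned for B2m and Psmb10 with median scaling, for Tap1 without EnhDel replicate 2 and for 7 genes with plain normexp background correction. An adjusted p under 0.05 was reached by 0 of 10 genes and by 0 of the 19394 tested (0%) with limma and Benjamini-Hochberg adjustment. At an unadjusted p under 0.05 the count was again 0 of 10 in limma, where 7.23% of all genes were higher and 3.96% lower, 2171 genes in all. At least a 2-fold difference with an unadjusted p under 0.05 was reached by 0 of 10, against 2.42% of all genes higher and 1.91% lower. Both EnhDel arrays lay above both control arrays for 8 of 10 genes, all but Tap1 and Psmb9, where 28.6% of all genes did so. That count rests on the scaling, as before it EnhDel replicate 1 was below control replicate 2 for every one of the 10 genes. For 0 of 10 genes did both EnhDel arrays lie below both control arrays, against 15.5% of all genes. A positive difference was found for 10 of 10 genes and for 59.8% of all genes.

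Values are given as normalized log2 signal, where 0 is the 75th percentile of the array, so a value serves to compare arrays for 1 gene and not genes with each other. On that scale the median difference of the 10 genes, EnhDel minus control, was 0.27, and it was 0.07 over all genes tested. The 2 EnhDel arrays differed in how far they stood from the control mean. The median of the 10 genes was 0.15 above it on EnhDel replicate 1 and 0.36 above it on EnhDel replicate 2, while over all genes it was 0.06 and 0.07. On EnhDel replicate 1, 9 of 10 genes were above the control mean, against 61.4% of all genes. On EnhDel replicate 2, 10 of 10 were above the control mean and above both controls, against 55.6% and 50.2%. EnhDel replicate 2 was the highest of the 4 arrays for 8 of the 10 genes, against 40.9% of all genes. Without EnhDel replicate 2 the median of the 10 genes was 0.15, 9 of 10 differences were positive, and the remaining EnhDel array lay above both controls for 8 of them, against 48.7% of all genes. The differences were then 0.24 for H2-K1 and B2m, 0.12 for Psmb8, 0.11 for Psmb9, 0.13 for Psmb10 and 0.27 for Nlrc5, and those of the other genes are given below. Without control replicate 1, the other sample at odds with its label, all 10 differences were positive, with a median of 0.23, and both EnhDel arrays lay above the remaining control for 8 genes. The shares of all genes in that setting were 61.6% and 41.1%.

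**Figure D1:**
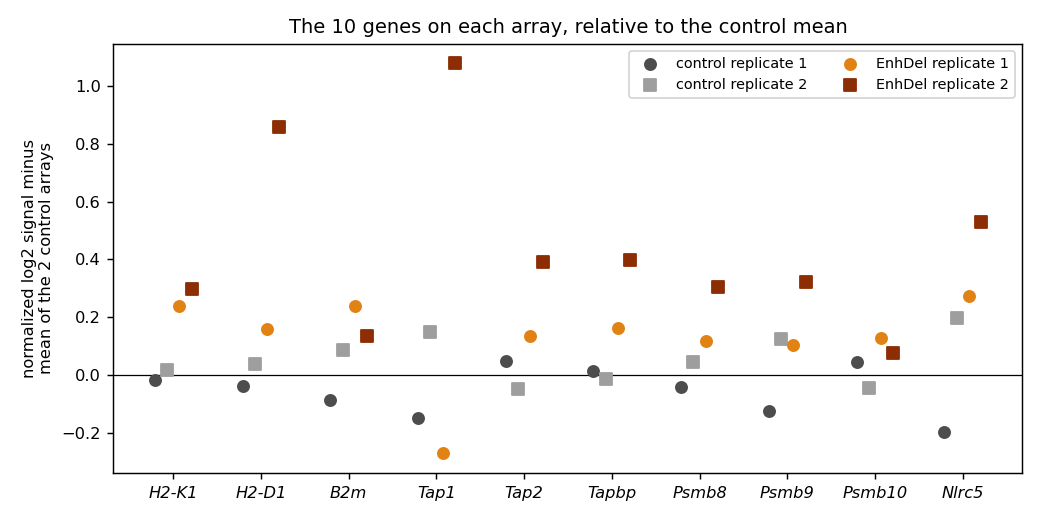
Normalized log2 signal of each of the 10 genes on each array, minus the mean of the 2 control arrays of that gene. Grey points are control arrays, orange circles EnhDel replicate 1 and brown squares EnhDel replicate 2, which is at 1.08 for Tap1 and 0.86 for H2-D1 while EnhDel replicate 1 is at -0.27 and 0.16.

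The heavy chains differed in how they stood on the 2 EnhDel arrays. H2-K1 encodes the K heavy chain, and its brighter probe had normalized log2 signals of 7.72 and 7.76 in the controls and of 7.98 and 8.04 on the EnhDel arrays. Both EnhDel arrays were above both controls. The difference was 0.27 ± 0.15 (SE, n = 2 per group), a 1.21-fold higher mean with a 95% interval of 0.918 to 1.58, and limma's adjusted p was 0.569. This probe was printed on 10 spots of every array. Over those spots the SD within an array was 0.04 to 0.09, and the lowest spot on an EnhDel array, at 7.91, lay above the highest on a control array, at 7.86. This gap rests on the scaling. Before it, the spots ran from 216857 to 249650 on control replicate 2 and from 218063 to 243752 on EnhDel replicate 1. Spots measure printing and scanning error, not the spread between mice.

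H2-D1, which encodes the D heavy chain, had signals of 6.35 and 6.43 in the controls, 6.55 on EnhDel replicate 1 and 7.25 on EnhDel replicate 2. Both EnhDel arrays were above both controls, but EnhDel replicate 2 was 1.81-fold the control mean and EnhDel replicate 1 was 1.12-fold. The group difference was 0.51 ± 0.28 (SE), 1.42-fold with a 95% interval of 0.847 to 2.39 and an adjusted p of 0.571 in limma. Without EnhDel replicate 2 the difference was 0.16. Without EnhDel replicate 1 it was 0.86.

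A second probe for H2-K1 gave the H2-D1 pattern rather than that of the first probe. Its values were 6.01 and 6.10 in the controls, 6.18 on EnhDel replicate 1 and 6.89 on EnhDel replicate 2. EnhDel replicate 2 was 1.79-fold the control mean by this probe and 1.23-fold by the brighter one, so the 2 probes of the gene disagreed on that array and agreed on its direction. The group difference by the second probe was 0.49 ± 0.28 (SE), with an adjusted p of 0.598 when limma was run on every probe. In build mm9 the brighter probe lies at chr17:34133055-34133114, the second probe at chr17:34133984-34134043 and the H2-D1 probe at chr17:35403886-35403945. Exon and UTR limits were not worked out, as no mm9 annotation was used. The second probe is shown, as it carries this disagreement.
H2-K1 second probe: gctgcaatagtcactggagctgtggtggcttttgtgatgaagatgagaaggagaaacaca
The only other probe of the array that resembled a probe of the 10 genes, with at least 75% identity over at least 45 bases, was one for Gm11127, a predicted gene, identical to the second H2-K1 probe at 44 of 54 overlapping bases. Class I heavy chain genes are near-identical copies in part of their length, and which heavy chain transcripts each probe reads was not tested, so values of single heavy chain genes are uncertain.

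B2m, the light chain of every classical class I molecule, had signals of 7.22 and 7.40 in the controls and of 7.55 and 7.44 on the EnhDel arrays. After scaling both EnhDel arrays were above both controls, each by less than the controls differed from each other. Before scaling both lay between the controls, at 169126 and 170080 against 143033 and 180501. The difference was 0.19 ± 0.16 (SE), 1.14-fold with a 95% interval of 0.845 to 1.53 and an adjusted p of 0.715 in limma, and it was -0.02 with median scaling of the arrays. Without control replicate 1 it was 0.098 and without control replicate 2 it was 0.27. In the reported scaling B2m was 1 of 2 genes, with Psmb10, on which EnhDel replicate 2 was not the highest array.

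Tap1, one subunit of the peptide pump, differed between the 2 EnhDel arrays more than any other gene of the set. Its normalized log2 signal was 0.00 and 0.30 in the controls, -0.12 on EnhDel replicate 1 and 1.23 on EnhDel replicate 2, or 961, 1319, 831 and 2295 before scaling. EnhDel replicate 1 was below both controls and EnhDel replicate 2 above both, at 2.11-fold the control mean. The group difference was 0.40 ± 0.49 (SE), with a 95% interval of -0.91 to 1.72 and an adjusted p of 0.797 in limma. It was 0.26 without control replicate 1 and 0.55 without control replicate 2. Without EnhDel replicate 2 the difference was -0.27, with the opposite sign. Without EnhDel replicate 1 it was 1.08.

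The Tap1 probe was also printed on 10 spots per array, which makes its values on single arrays precise. The spots ran from -0.08 to 0.07 on control replicate 1, from 0.23 to 0.36 on control replicate 2, from -0.19 to -0.02 on EnhDel replicate 1 and from 1.14 to 1.31 on EnhDel replicate 2. All 10 spots of EnhDel replicate 2 were above every spot of the other arrays, so spot noise was far smaller than the gap between the EnhDel arrays. The probe lies at chr17:34330854-34330913 in mm9 and is shown because the widest split of the set rests on it.
Tap1 probe: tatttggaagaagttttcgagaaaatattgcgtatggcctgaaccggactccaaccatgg

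**Figure D2:**
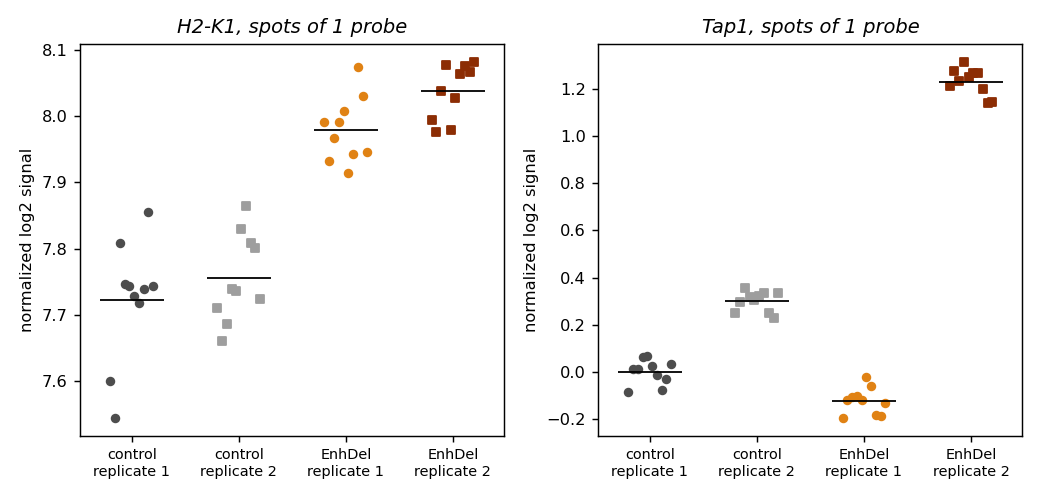
Each point is 1 spot of the brighter H2-K1 probe (left) or of the Tap1 probe (right), as normalized log2 signal, and each bar is the mean of the 10 spots of 1 array. H2-K1 is higher on both EnhDel arrays, while Tap1 is high on EnhDel replicate 2 alone, at 1.23.

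The partners of Tap1 were closer between the EnhDel arrays. Tap2, the other pump subunit, had signals of 4.12 and 4.02 in the controls and of 4.2 and 4.46 on the EnhDel arrays. Both EnhDel arrays were above both controls, by a difference of 0.26 ± 0.17 (SE), 1.2-fold with a 95% interval of 0.872 to 1.65 and an adjusted p of 0.632 in limma. Tapbp, tapasin, had signals of 4.24 and 4.21 in the controls and of 4.39 and 4.62 on the EnhDel arrays. Again the groups did not overlap. The Tapbp difference was 0.28 ± 0.16 (SE), 1.21-fold with a 95% interval of 0.894 to 1.65 and an adjusted p of 0.598. Without EnhDel replicate 2 the differences were 0.13 for Tap2 and 0.16 for Tapbp.

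The 3 immunoproteasome subunits differed by less than 1.2-fold in mean. Psmb8, the chymotrypsin-like subunit, had signals of 4.24 and 4.33 in the controls and of 4.40 and 4.59 on the EnhDel arrays, with no overlap of the groups. Psmb9, which replaces the caspase-like subunit, had 4.16 and 4.41 in the controls and 4.39 and 4.61 on the EnhDel arrays, and EnhDel replicate 1 lay between the controls. Psmb10, the trypsin-like subunit, had 6.01 and 5.92 in the controls and 6.09 and 6.04 on the EnhDel arrays, above both controls by little. The differences were 0.21 ± 0.16 (SE) for Psmb8, 0.21 ± 0.18 for Psmb9 and 0.10 ± 0.15 for Psmb10. As folds these were 1.16 with a 95% interval of 0.860 to 1.56, 1.16 with 0.825 to 1.63 and 1.07 with 0.814 to 1.42. Adjusted p in limma was 0.678, 0.713 and 0.834, and with median scaling the Psmb10 difference was -0.10. Without control replicate 1 the Psmb9 difference was 0.088 and the Psmb10 difference 0.15, and without control replicate 2 they were 0.34 and 0.056.

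Psmb9 and Tap1 lie head to head across the interval of 225 bases shown above, and they were not alike on EnhDel replicate 2. On that array Tap1 stood 1.08 above its control mean and Psmb9 0.32. On EnhDel replicate 1 Tap1 stood at -0.27 and Psmb9 at 0.11. Further along chromosome 17, where 7 of the 10 genes lie, the neighbours Psmb8 and Tap2 stood 0.31 and 0.39 above their control means on EnhDel replicate 2. The difference between these genes was not tested.

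Within an array, each immunoproteasome subunit was set against the constitutive subunit it replaces, which needs no scaling between arrays. Psmb8 minus Psmb5 was -1.29 and -1.04 in the controls, -1.18 on EnhDel replicate 1 and -0.65 on EnhDel replicate 2, as log2 ratios of 2 probes whose size has no meaning across probes. Psmb9 minus Psmb6 was -1.13 and -0.91 in the controls and -1.0 and -0.39 on the EnhDel arrays. Psmb10 minus Psmb7 was 4.02 and 3.85 in the controls and 4.14 and 4.0 on the EnhDel arrays. For the first and the second pair EnhDel replicate 1 lay between the controls and EnhDel replicate 2 above both, and for the third EnhDel replicate 2 lay between the controls. The group differences were 0.25, 0.32 and 0.14, each with p = 0.667 in a two-sided exact permutation test over the 4 samples, where the smallest p possible is 0.333, so no p under 0.05 can be reached. Without EnhDel replicate 2 they were -0.01, 0.02 and 0.21.

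**Figure D3:**
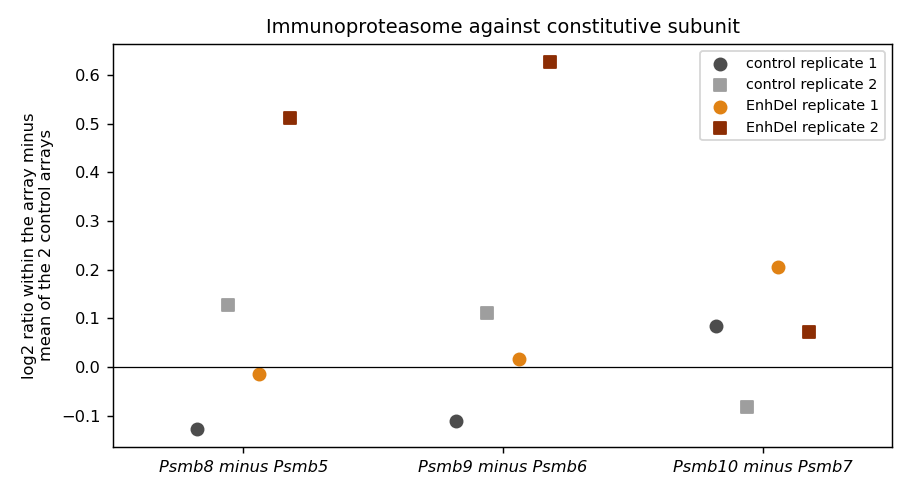
Log2 ratio of each immunoproteasome subunit to the constitutive subunit it replaces within each array, minus the mean of the 2 control arrays. EnhDel replicate 2 (brown squares) is the highest array for the Psmb8 and Psmb9 pairs, and EnhDel replicate 1 (orange circles) for the Psmb10 pair.

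Nlrc5, the regulator, had signals of 2.62 and 3.02 in the controls and of 3.1 and 3.35 on the EnhDel arrays. Both EnhDel arrays were above both controls, each by less than the controls differed from each other. The difference was 0.40 ± 0.22 (SE), 1.32-fold with a 95% interval of 0.885 to 1.97 and an adjusted p of 0.565 in limma. It was 0.20 without control replicate 1 and 0.60 without control replicate 2. A second, dim Nlrc5 probe had raw signals of 45, 64, 56 and 85 in the same order of arrays, well above background on all 4. By either Nlrc5 probe EnhDel replicate 1 lay between the controls before scaling and above both after it. The normalized difference by the dim probe was 0.46 ± 0.25 (SE). The brighter probe lies at chr8:97051105-97051164 in mm9.

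**Figure D4:**
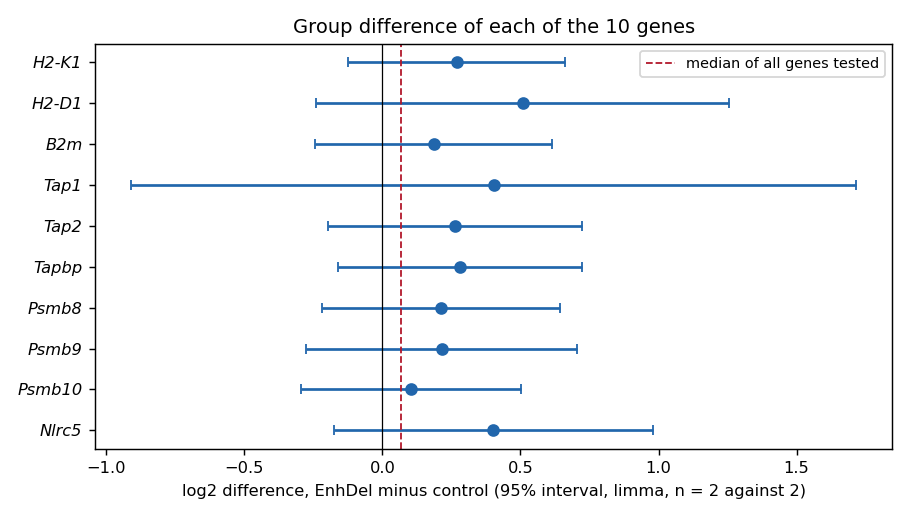
Difference of the group means in normalized log2 signal, EnhDel minus control, for each of the 10 genes, with the 95% interval of limma's fit (n = 2 per group). All 10 intervals include 0, and the dashed line marks the median of all genes tested, 0.07.

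In the authors' deposited table of log2 values, which gives 1 value per gene to 1 decimal, the 10 genes were again higher in mean on the EnhDel arrays. For single genes, the authors' deposited table lists H2-D1 at 16.3 and 16.4 for the controls and at 16.4 and 17.5 for the EnhDel arrays. For Tap1 the authors' deposited table lists 9.8 for EnhDel replicate 1 and 11.1 for EnhDel replicate 2. Unlike in the reported scaling, EnhDel replicate 2 was the highest array there for B2m, at 17.5, and for Psmb10, at 16.2. Only 4 of the 10 genes had both EnhDel values above both control values there, against 14.8% of all genes, since several were equal at 1 decimal, and the median difference was 0.3 by the same limma fit on that table.

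The other class I heavy chains were mostly higher on EnhDel replicate 2, as H2-D1 was. Of 34 genes listed, 30 were on the array, 20 were tested and 9 were below background on every array. Of the 20 tested, 17 had a positive difference, against 59.8% of all genes. The median of the 20 was 0.52, with 0.13 above the control mean on EnhDel replicate 1 and 0.89 on EnhDel replicate 2. Both EnhDel arrays were above both controls for 10 of 20 (28.6% of all genes) and below for 1 (15.5%). In limma an unadjusted p under 0.05 was reached by H2-Q8, with a difference of 0.95 ± 0.30 (SE), and by Fcgrt, at -1.53 ± 0.38. Over all genes, 7.23% were higher and 3.96% lower at that threshold. An adjusted p under 0.05 was reached by 0. H2-Bl, next by p, differed by 0.81 ± 0.30. Without EnhDel replicate 2, 15 of 20 differences were positive, against 61.4% of all genes, and H2-Q8 stood at 0.63 and Fcgrt at -2.03. Fcgrt encodes the neonatal Fc receptor, which binds antibody and presents no peptide. For this list and those that follow, the median without EnhDel replicate 2 is that of EnhDel replicate 1 alone.

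Among these heavy chains, H2-Q and H2-T genes are the closest relatives of H2-K1 and H2-D1. All 7 tested H2-Q genes had their highest value on EnhDel replicate 2, against 40.9% of all genes. They stood 0.28 to 1.28 above the control mean there, with a median of 1.0. On EnhDel replicate 1 they ranged from -0.15 to 0.63 with a median of 0.18. H2-Q7, which encodes a Qa-2 molecule, had 5.77 and 6.10 in the controls and 6.23 and 6.94 on the EnhDel arrays. H2-Q6 and H2-Q7 both hold the kappa B motif of H2-K1 and H2-D1. H2-Q8, not among the genes found with that motif, stood 1.28 above the control mean on EnhDel replicate 2. A link of the motif to these values was not tested. H2-Q6 had 4.88 and 5.01 in the controls and 5.05 and 6.04 on the EnhDel arrays. All 4 tested H2-T genes were also highest on EnhDel replicate 2, with a median of 0.75 above the control mean, against 0.12 on EnhDel replicate 1. Of the 4 tested genes H2-Bl, H2-M3, H2-M9 and H2-M11, all but H2-M3 were highest on EnhDel replicate 2. H2-M3, which presents formylated peptides, was 0.34 above the control mean on EnhDel replicate 1 and 0.15 on EnhDel replicate 2. H2-M11, picked like H2-M3 after its values were seen, had -2.64 and -2.72 in the controls, -2.52 on EnhDel replicate 1 and 0.01 on EnhDel replicate 2. Of 37 class I probes compared with each other, 1 pair, H2-Q2 with H2-Q10, was alike by the rule above, at 45 of 50 bases. The 5 class I-like genes outside the H2 complex, Cd1d1, Cd1d2, Mr1, Hfe and Fcgrt, had 2 positive differences and a median of -0.09.

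The other genes of peptide loading had mostly negative differences with both EnhDel arrays and mostly positive ones without EnhDel replicate 2. Of 17 genes for peptide loading and trimming, 4 had a positive difference, against 59.8% of all genes, and 13 a negative one. The median was -0.05 (EnhDel replicate 1 alone at 0.10, EnhDel replicate 2 alone at -0.14). Of the 17, 0 reached an unadjusted p under 0.05 in limma. With EnhDel replicate 1 alone, 11 of 17 were positive, against 61.4% of all genes. Tapbpl, the tapasin-related peptide editor TAPBPR, had the smallest p of the list, with 0.76 and 0.91 in the controls, 1.02 and 1.46 on the EnhDel arrays and a difference of 0.40 ± 0.21 (SE). The chaperones Pdia3 and Canx differed by -0.18 ± 0.16 and -0.20 ± 0.19, and the trimming peptidase Erap1 by -0.17 ± 0.18.

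Most genes of the constitutive proteasome had a negative difference, and no single one passed a threshold. Of 21 genes for core subunits, assembly factors and the PA28 activators, 18 had a negative difference. Over all genes, 59.8% had a positive one. The group difference of the 21 had a median of -0.11, and 0 reached an unadjusted p under 0.05 in limma. The median was 0.00 from the control mean on EnhDel replicate 1, where 10 of 21 were above it, and -0.29 on EnhDel replicate 2. Psma7, a structural core subunit, had the smallest p, with 5.08 and 5.04 in the controls and 4.89 and 4.52 on the EnhDel arrays. Psma6 and Psma1, also structural, differed by -0.26 ± 0.16 and -0.19 ± 0.17 (SE), and the assembly factor Psmg2 by -0.29 ± 0.21. The replaced subunits Psmb5, Psmb6 and Psmb7 differed by -0.04 ± 0.19, -0.11 ± 0.20 and -0.04 ± 0.15 (SE). Of the interferon-inducible PA28 chains, Psme1 differed by 0.15 ± 0.14, with no overlap of the groups, and Psme2 by -0.02 ± 0.19.

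Regulators of class I genes were mixed. Of 31 genes, 18 had a positive and 13 a negative difference, where 59.8% of all genes had a positive one. The median was 0.02 (EnhDel replicate 1 alone at 0.09, EnhDel replicate 2 alone at -0.04). In limma 4 were higher with an unadjusted p under 0.05 (7.23% of all genes) and 0 lower (3.96%). Among them were Socs3 at 1.17 ± 0.16 (SE) and Socs1 at 0.93 ± 0.24, which both inhibit cytokine signalling, and Rfx5 at 0.86 ± 0.18, a subunit of RFX. The adjusted p of these genes was 0.195 for Socs3, 0.274 for Rfx5 and 0.332 for Socs1. With EnhDel replicate 1 alone, the differences were 1.13 for Socs3, 0.78 for Socs1 and 0.71 for Rfx5. Irf1, an activator of class I and Tap1 transcription, had 5.10 and 5.16 in the controls and 5.38 on both EnhDel arrays, with a difference of 0.25 ± 0.15. Irf2 differed by -0.17 ± 0.23. Ciita, the class II counterpart of Nlrc5, had -1.27 and -1.20 in the controls, -0.86 on EnhDel replicate 1 and 0.48 on EnhDel replicate 2, so the same array was far above the rest.

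Interferon-stimulated genes outside the set had a larger median difference than the class I genes. Of 34 tested, 33 had a positive difference, all but Bst2, against 59.8% of all genes. The median was 0.71, with 0.50 on EnhDel replicate 1 and 0.99 on EnhDel replicate 2. In limma an unadjusted p under 0.05 was reached by 17 of 34, all higher, against 7.23% of all genes. An adjusted p under 0.05 was reached by 0. Oasl1, a relative of the antiviral Oas enzymes, had 1.12 and 1.82 in the controls and 3.01 and 3.70 on the EnhDel arrays. Oasl2 differed by 1.29 ± 0.30 (SE) and Oas1a by 2.21 ± 0.54. Parp14 had 2.60 and 2.57 in the controls and 3.18 and 3.14 on the EnhDel arrays. Unlike Tap1, the list stayed above the control mean on EnhDel replicate 1, where 31 of 34 genes were higher, against 61.4% of all genes. On EnhDel replicate 1, Oasl2 stood at 0.94 and Oas1a at 1.59 above the control mean.

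**Figure D5:**
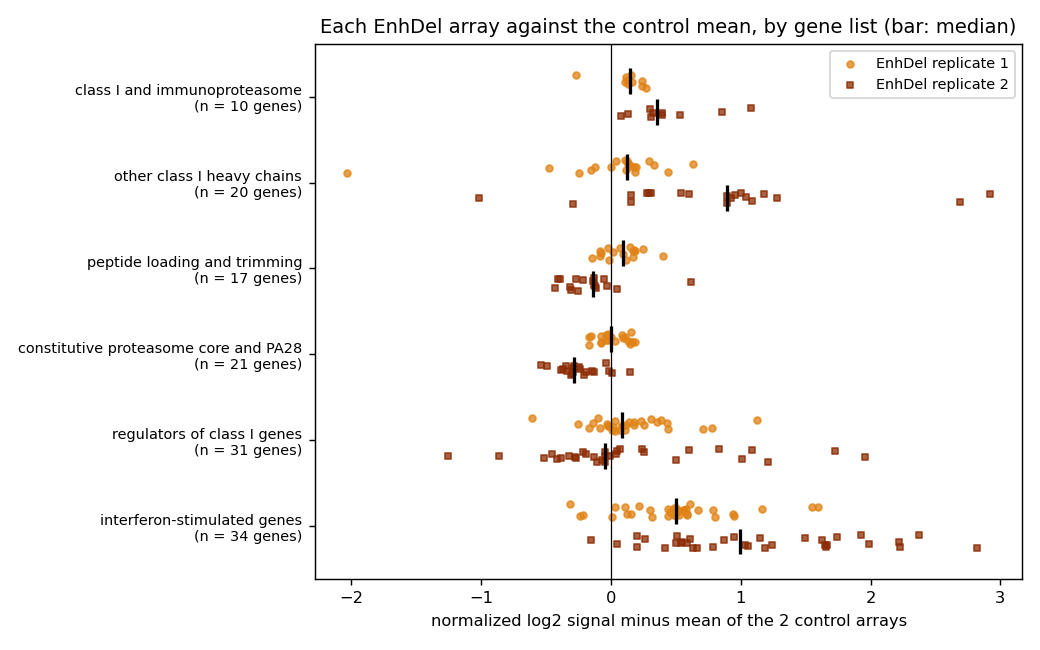
Each point is 1 gene on 1 EnhDel array, as normalized log2 signal minus the mean of the control arrays, for the 10 class I and immunoproteasome genes and 5 related lists, and black bars are medians. On EnhDel replicate 2 the medians run from -0.29 for the constitutive proteasome to 0.99 for interferon-stimulated genes, and on EnhDel replicate 1 from 0.00 to 0.50.

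Receptors that read class I were mixed in level and in direction. Of 17 listed, 13 were tested, 9 with a positive difference, against 59.8% of all genes. The median of the 13 was 0.22 (EnhDel replicate 1 alone at 0.42, EnhDel replicate 2 alone at 0.06). At an unadjusted p under 0.05 in limma, 3 were higher and 1 lower, against 7.23% and 3.96% of all genes. Klrc1, an NKG2 chain that binds Qa-1 with peptide, had -5.53 and -6.54 in the controls, where it was well above background on 1, and -3.77 and -4.11 on the EnhDel arrays. Klrk1, the NKG2D receptor for class I-like stress ligands, differed by -1.24 ± 0.17 (SE). Cd8b1, a chain of the CD8 co-receptor, differed by 0.88 ± 0.25 and Klra7, an inhibitory Ly49 receptor, by 1.04 ± 0.36. Adjusted p for these 4 ran from 0.196 for Klrk1 to 0.42 for Klra7. On EnhDel replicate 1 Cd8b1 stood at 1.07, Klra7 at 0.97, Klrk1 at -1.36 and Klrc1 at 2.26.

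Markers of some other cell types differed between the groups, while the sums for plasmacytoid dendritic cells and mature B cells overlapped. The part of any cell type in the class I values was not tested. Summed over a list, levels are given relative to the 75th percentile of the array. Of all genes tested, 7.23% were higher and 3.96% lower at an unadjusted p under 0.05 in limma, and 59.8% had a positive difference. The 10 markers of plasmacytoid dendritic cells, which carry B220 and make interferon, were all well above background on all arrays and summed to 863 to 949 in the controls and 880 to 959 on the EnhDel arrays. Class II presentation genes summed to 373 and 375 in the controls and to 530 and 594 on the EnhDel arrays, with 3 of 5 higher at an unadjusted p under 0.05. T cell markers summed to 17.9 and 19.2 against 27.6 and 35.4, with 4 of 9 tested higher at that threshold. Cd4, which plasmacytoid dendritic cells also carry, held the larger part of the T cell sum on the EnhDel arrays, at 9.29 and 8.21 in the controls and 16 and 28.7 on EnhDel replicates 1 and 2. Without Cd4, left out after its values were seen, the sum was 9.91 and 9.71 in the controls, 11.6 on EnhDel replicate 1 and 6.67 on EnhDel replicate 2, the lowest of the 4 arrays. NK cell markers summed to 1.70 and 2.25 against 2.85 and 3.51, with 3 of 9 tested higher and 1 lower, and 7 of 10 were well above background on all arrays. Neutrophil markers summed to 20.2 and 24.2 against 1.2 and 11, with 1 of 8 tested higher and 1 lower at an unadjusted p under 0.05. Of the 8 differences, 6 were negative and 2 positive, each without overlap of the groups, as for 15.5% and 28.6% of all genes. Mpo, the brightest neutrophil gene, was 14.27 and 16.96 against 0.59 and 7.38. Without Mpo the sum was 5.93 and 7.26 against 0.61 and 3.67. Monocyte markers summed to 15.1 and 17.3 against 7.14 and 8.49, with 6 of 9 tested lower at that threshold. Of the 9 differences, 8 were negative and 1 positive. The neutrophil genes Ltf and Ngp were below background on every array. Markers of conventional dendritic cells summed to 50.7 and 58.4 against 38.3 and 44.1, with Xcr1 below background on every array, and those of mature B cells to 2.25 and 2.58 against 2.32 and 3.0. The list of early B markers summed to 163 and 165 against 149 and 124, with 8 of 13 lower at an unadjusted p under 0.05 in limma. Of these, 6 were at least 2-fold lower, against 1.91% of all genes. The sum hides the size of this, as Dntt, its brightest gene, was 48.6 and 42.5 against 59.9 and 41.2. Without Dntt the sum was 114 and 122 against 89.0 and 83.0. The log2 differences of the 13 genes ran from -3.40 to 0.49, with a median of -0.79, and 3 were positive. EnhDel replicate 2, which had the higher class I values, also had the lowest early B sum and the highest class II sum.

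The genes most like the set over the 4 arrays were sought by the distance of their centred profile from the median profile of the 10 genes, which was -0.17 and -0.08 in the controls, 0.02 on EnhDel replicate 1 and 0.24 on EnhDel replicate 2. The 5 nearest were Ostm1, Slc35b4, Ykt6, Neu1 and Vamp2, with root mean square distances of 0.0095 to 0.018 over 4 arrays. They encode a lysosomal membrane protein, a nucleotide sugar transporter, a SNARE, a lysosomal sialidase and another SNARE. Among the 10 genes themselves Psmb8 was nearest to that profile, at 0.022, and Tap1 farthest, at 0.41, where the median distance of all genes tested was 0.23. With only 4 arrays and 19394 genes, close profiles are common.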

How the data were processed

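RNA of sorted preproB cells was amplified linearly, labelled with Cy3 and hybridised to 1-colour Agilent expression arrays, 1 sample per array, per the labels' protocols. All 4 arrays were on 1 slide and read in 1 scan. Per the file headers, Agilent Feature Extraction 10.7.3.1 wrote the deposited scanner files, which hold the intensity of each spot, background-corrected as the processed signal, with probe positions in build mm9. The authors also deposited a table of log2 values with a median of 6.5 in every column. The equal medians leave its normalization between arrays unknown, and it was used as an alternative.

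Control spots and flagged spots (126 to 162 per array) were left out. Spots of a probe were averaged, and log2 processed signal was scaled by subtracting the 75th percentile of the array. The RefSeq gene table of GRCm38.p6 gave symbols by accession (26581 of 39429 matched). A gene was its brightest probe and was tested where both arrays of 1 or both groups were well above background. The group comparison used limma 3.58.1 (lmFit, eBayes) under R 4.3.3, with Benjamini-Hochberg adjustment over 19394 genes at 0.05. The fit was tested on simulated data with the spread of these arrays. Of 50 genes given a log2 change of 0.25, 0 passed the adjusted threshold, and the same held for 50 given 0.5. At a change of 1 it was 1 of 50, and at 2 it was 36 of 50. The differences of the 10 genes ran from 0.10 to 0.51, so a count of 0 passing does not show a lack of change.

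The 10 genes and all gene lists were chosen with earlier results of these data known, so no list or count here is independent evidence. The text names all 10 genes, the 4 genes with the smallest unadjusted p of each list, the replaced proteasome subunits, Irf1, Irf2 and Ciita, the sex-linked and gate genes, Cebpa, and the 5 genes nearest in profile. One gene of the list of regulators that the rule names is not reported here. Psme1, Psme2, Bst2, H2-Q6, Dntt and Mpo were named beside these after their values were seen. Promoters were RefSeq sequences, read on both strands. Replicates 1 and 2 share only a number: deviations of replicate 1 from the group means correlated at -0.02 between the groups. The alternatives were other background corrections (normexp with an offset of 50, plain or with 6 spots of EnhDel replicate 1 repaired), median scaling, quantile and cyclic loess normalization, other filters and probe rules, an intensity trend with robust variance, the replicate number as a block, the deposited table, and each array left out.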

Additional observations from a re-analysis of the deposited data

How the results depend on the processing

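No gene of the 10 passed an adjusted p of 0.05 in limma under any alternative that kept all 4 arrays. Without EnhDel replicate 1 the difference was 0.86 for H2-D1 and 1.08 for Tap1. Median scaling moved the median of all genes from 0.07 to -0.13. It gave a median of 0.062 for the 10 genes, 0.20 above that of all genes. Both scalings subtract a constant from each array, so this gap is bound to be the same as reported. The differences were then -0.018 for B2m and -0.10 for Psmb10, and the median of the regulators was -0.19. For 2 of the 10 genes both EnhDel arrays lay above both controls (13.1% of all genes), and 23 genes passed the adjusted threshold in all. Of genes with an unadjusted p under 0.05, 64.6% were higher as reported, 35.6% with median scaling, 46.7% with quantile normalization and 44.3% with cyclic loess. Cyclic loess left 5 genes without overlap (21.1% of all genes) and the deposited values 4 (14.8%). Averaging a gene's probes gave 2 genes past the threshold in all. Plain normexp left 0 genes without overlap, higher (35.4% of all genes), and a median of -0.026 against 0.19 over all genes, with 2 of the 10 above the latter, with -0.040 for H2-K1, -0.12 for B2m, -0.011 for Tapbp, -0.0059 for Tap2, -0.086 for Psmb8, -0.10 for Psmb9 and -0.20 for Psmb10, and medians of -0.28 for peptide loading, -0.35 for the constitutive proteasome and -0.17 for the regulators. On EnhDel replicate 1, 6 spots had a local background above 5 times its median, up to 10214, and with these spots repaired the median of the 10 genes was 0.26 with 7 genes without overlap (29.3% of all genes). Leaving out each array in turn gave 1 to 2938 genes past the threshold in all (47 without EnhDel replicate 2, 6 without control replicate 2, 1 without control replicate 1), 0 to 4 of the 10 genes higher at an unadjusted p under 0.05 (the 4 without EnhDel replicate 1, where 25.0% of all genes were), 0 to 1 at 2-fold, 0 to 1 with EnhDel below both controls, and -0.27 to 1.08 for Tap1. Medians of the lists ranged from 0.13 to 0.89 for other heavy chains, -0.044 to 0.11 for the regulators and 0.50 to 0.99 for interferon-stimulated genes. A fit that leaves 1 array in a group assumes that it varies like the other group, so its p-values are not given. Over all genes, the SD of the difference between replicates was 0.61 for EnhDel and 0.33 for the controls. With the replicate number as a block, 0 genes passed, the median of the 10 genes was 0.27, and no call changed. Dimness did not limit these genes, whose signals exceeded the lowest signal well above background (12.2 to 14.4), but 2 arrays per group limit every comparison.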
